A study of Marchantia polymorpha and Lactuca sativa with 27 samples.

Results

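The genotype by labelled phosphate removal interaction asks, for each gene of the liverwort Marchantia polymorpha, whether the change on medium labelled without phosphate was the same in the Mpwrky10 mutant as in the wild type Tak-1. It was measured in 12 of the 27 libraries of the series: 3 of Mpwrky10 on the no-phosphate medium, 3 of Mpwrky10 on full medium, 3 of Tak-1 on the no-phosphate medium and 3 of Tak-1 on full medium. All were whole plants grown from gemmae, the asexual propagules of liverworts, in Yamagami medium under continuous light. They were 7 days old when transferred and were treated for 5 days, on medium with 0 mM phosphate or on full medium, which holds phosphate at 2 mM and nitrate at 10 mM. The labels give Mpwrky10 as a mutant line and do not give the kind of mutation, its parent or the number of lines. The series also holds Mpwrky10 and Tak-1 on medium labelled without nitrate, and lettuce, which was not used here.

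WRKY proteins are plant transcription factors that bind the W-box in promoters and are best known from responses to pathogens and stress. Plants short of phosphate commonly raise phosphate uptake, replace membrane phospholipids and make more phenolic compounds. In Marchantia, phenolics are made by the phenylpropanoid pathway and oxidised by a large family of polyphenol oxidases, and sesquiterpenes are stored in oil bodies, organelles of scattered single cells that deter herbivores. The question here was which of these responses depended on the genotype.

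For each gene the interaction is the log2 fold change of Mpwrky10 (no-phosphate over full medium) minus that of Tak-1. A negative value means that the log2 response was lower in the mutant. A gene was called where edgeR's quasi-likelihood test gave a Benjamini-Hochberg adjusted p under 0.05 over all 13016 genes tested, and every adjusted p below is from this test. Levels are in CPM, counts scaled to library size with TMM factors, and are not corrected for gene length, so they compare libraries and not genes. Whole plants hold many cell types, and fewer cells of a type cannot be told apart from less RNA per cell.

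The 12 libraries held 19420236 to 25544702 counts each, and 1 count was worth 0.0391 to 0.0515 CPM. On the principal component that separated the media (62.2% of the variance) the no-phosphate libraries of Mpwrky10 lay at 27.1, 41.4 and 13.3, against 57.6, 57.4 and 52.5 in Tak-1, and the full-medium libraries at -41.3, -38.5 and -58.5 in Mpwrky10, against -40.6, -39.8 and -30.7 in Tak-1. The Mpwrky10 replicates were thus farther apart than those of Tak-1 on the no-phosphate medium. The photosynthesis genes, which check that thallus was sampled, had summed levels of 948 to 1080 CPM in Mpwrky10 and 922 to 1020 CPM in Tak-1 without phosphate, and of 1560 to 1770 CPM in Mpwrky10 and 1480 to 1660 CPM in Tak-1 on full medium.

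The 2 phosphate transporter genes above 1 CPM in these 12 libraries differed in how they followed the names of the media. MpPTB8 stood at 20.01 ± 3.603 CPM in Mpwrky10 and 21.6 ± 1.73 CPM in Tak-1 on medium labelled without phosphate, and at 38.1 ± 5.02 CPM in Mpwrky10 and 31.8 ± 8.45 CPM in Tak-1 on full medium (SD, n = 3 each). On medium labelled without nitrate it stood at 201.3 ± 60.6 CPM in Mpwrky10 and 337.1 ± 73.9 CPM in Tak-1 (SD, n = 3 each). MpPTB7 rose on medium labelled without phosphate, at 10.2 ± 2.96 CPM in Mpwrky10 and 11.6 ± 0.701 CPM in Tak-1, against 5.196 ± 0.893 CPM in Mpwrky10 and 5.51 ± 1.33 CPM in Tak-1 on full medium (SD, n = 3 each; log2 change 0.99 with adjusted p = 0.00224 in Mpwrky10 and 1.08 with adjusted p = 0.000629 in Tak-1). The ammonium transporters, given further on, also rose on medium labelled without phosphate. Of 8 tested, 7 rose in Mpwrky10 (20.3% of all genes) and 8 in Tak-1 (26.3%). The media are called by their labels throughout, and whether labels were exchanged was not tested.

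MpWRKY10 (Mp7g06550), the gene for which the mutant is named, was at 27.2 ± 1.68 CPM in Mpwrky10 and 29.8 ± 1.34 CPM in Tak-1 without phosphate, and at 18.7 ± 3.45 CPM in Mpwrky10 and 19.6 ± 2.61 CPM in Tak-1 on full medium (SD, n = 3 each). Its interaction was -0.07 on the log2 scale (SE 0.167, adjusted p = 0.913). Since the labels do not say what the mutation does to the transcript, this level checks no label.

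Of the 13016 genes, 40 were called in the interaction (0.307% of genes tested). The response was lower in the mutant for 37 of them (0.284%) and higher for 3 (0.023%). An unadjusted p under 0.05 was reached by 1542 genes (11.8%), 796 with a negative and 746 with a positive value. Over all genes tested 47.7% of the values were negative and the median interaction was 0.01. The called genes included polyphenol oxidases, cytochromes P450, a terpene synthase-like gene, the signalling genes MpCTR1, MpIDA4 and MpBHLH21, and 24 genes with no symbol. The 40 sizes ran from 0.38 to 5.18 on the log2 scale, and 12 were at least 2-fold, 11 lower and 1 higher in the mutant.

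**Figure D1:**
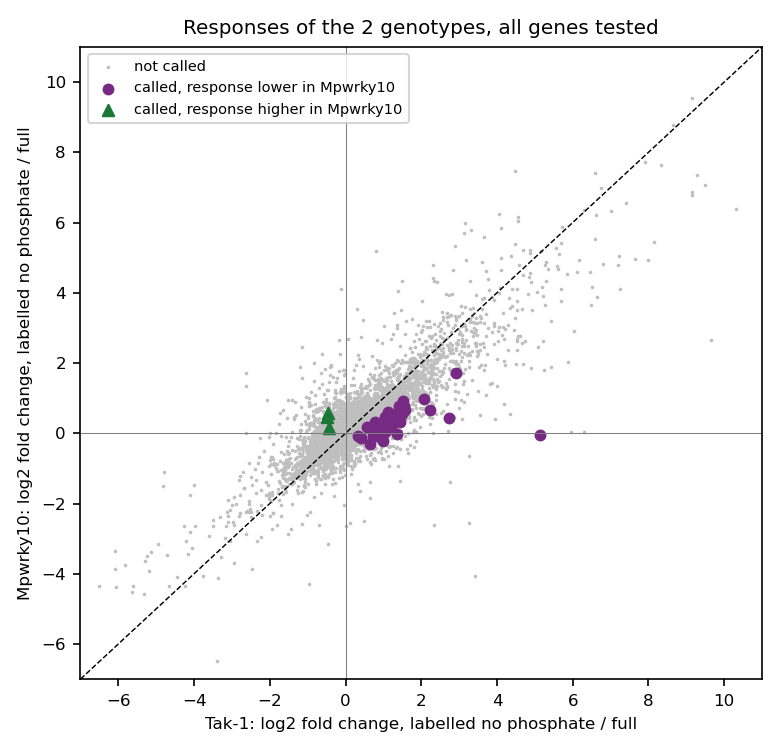
Each point is 1 of the 13016 genes tested, with the Tak-1 log2 fold change (no-phosphate over full medium) on the x axis and that of Mpwrky10 on the y axis; the dashed line marks equal responses. The 37 genes with a lower mutant response (purple circles) lie to the right of 0 and below the line, and the 3 with a higher one (green triangles) to the left of 0 and above it.

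The negative interactions had a common form. In Mpwrky10, 18 of the 37 genes rose without phosphate (20.3% of all genes tested did so), 1 fell (16.8%) and 18 were not called, with a median log2 change of 0.19. In Tak-1 all 37 rose (26.3% of all genes), with a median of 1.12. On the no-phosphate medium, Mpwrky10 was lower than Tak-1 for 25 of the 37 (3.95% of all genes), higher for 2 (2.66%) and not called for 10. On full medium Mpwrky10 was higher than Tak-1 for 17 (2.07%), lower for 5 (2.17%) and not called for 15. These comparisons share their libraries with the interaction and show only which group levels made it. Of the 37, 24 had a mean of at least 20 CPM over the 12 libraries.

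**Figure D2:**
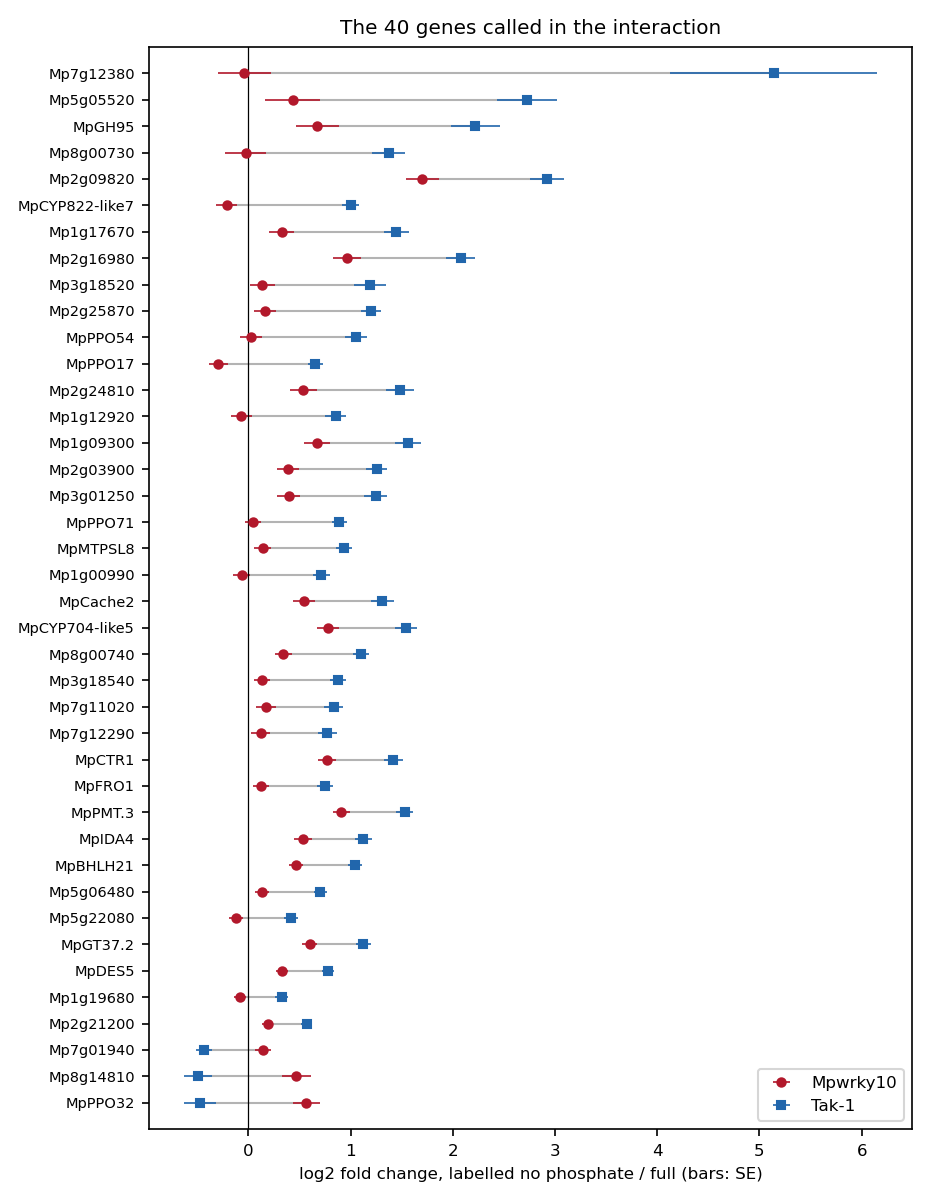
The 40 called genes, from the lowest interaction at the top to the highest at the bottom, with the log2 fold change on medium labelled without phosphate over full medium in Mpwrky10 (red circles) and Tak-1 (blue squares) and bars of 1 SE. The grey line between the points is the interaction; the Tak-1 value of Mp7g12380 is fitted against a group at 0 counts and is no measured fold.

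For every one of the 40, each of the 9 pairings of a no-phosphate with a full-medium library of 1 genotype gave a change outside the range of the other genotype. Such separation with Mpwrky10 lower was found for 3.08% of all genes and with Mpwrky10 higher for 2.14%. The 40 were called from these same libraries, so their separation is a description and no further support. Of the 40 genes, 13 kept an adjusted p under 0.05 in all 19 alternative fits, all of them lower in the mutant. These were MpCYP822-like7, MpPPO71, MpPPO17, MpPPO54, MpMTPSL8, MpBHLH21 and the unnamed Mp3g18540, Mp2g25870, Mp8g00740, Mp1g17670, Mp1g00990, Mp1g12920 and Mp5g06480. The other 27 lost the call in at least 1 fit that left out a library, although all 40 kept their sign. The total depended on single libraries: it was 93 without full-medium Mpwrky10 library 1 and 62 without full-medium Tak-1 library 3, and 15 to 26 without any of 9 others, the lowest without no-phosphate Tak-1 library 1.

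Polyphenol oxidases are copper enzymes that oxidise phenolics to quinones. They had the most called members of the 38 gene lists, which differ in size. Of 33 tested, 3 were lower (0.284% of all genes) and 1 was higher (0.023%). The 3 lower ones rose in Tak-1, and none of them was called higher in the mutant. The 33 values were 18 negative and 15 positive with a median of -0.08, against 0.01 over all genes; this median ran from -0.32 without no-phosphate Mpwrky10 library 2 to 0.13 without full-medium Tak-1 library 2. How the counting treated reads shared by close family members is not given in the sources used here, so values of single members are uncertain.

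MpPPO71 (Mp5g20040) was at 26.8, 23.6 and 28.8 CPM in Mpwrky10 without phosphate and at 28.5, 25.2 and 23.2 CPM in Mpwrky10 on full medium. In Tak-1 it was at 70.8, 66.5 and 71.9 CPM without phosphate and at 38.1, 38.2 and 36.6 CPM on full medium. The mutant libraries of the 2 media overlapped and all lay below every Tak-1 library. The log2 change was 0.04 in the mutant and 0.89 in Tak-1, and the interaction was -0.85 (SE 0.106, adjusted p = 0.00103).

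MpPPO54 (Mp5g19990) was at 11.7, 15.6 and 16.7 CPM in Mpwrky10 without phosphate and at 14.6, 15.4 and 13.3 CPM in Mpwrky10 on full medium, whereas Tak-1 stood at 29.3, 27.0 and 31.8 CPM without phosphate and at 15.2, 14.1 and 13.2 CPM on full medium. Only the no-phosphate Tak-1 libraries stood apart, since on full medium the genotypes differed by 0.02 on the log2 scale (adjusted p = 0.960). Its interaction was -1.02 (SE 0.153, adjusted p = 0.00365).

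MpPPO17 (Mp5g15320) was at 10.2, 10.4 and 10.9 CPM in Mpwrky10 without phosphate, against 13.1, 14.0 and 11.5 CPM in Mpwrky10 on full medium, and at 106.0, 123.0 and 124.1 CPM in Tak-1 without phosphate, against 75.1, 76.7 and 72.1 CPM in Tak-1 on full medium. It was the only gene of the 37 that fell in the mutant (log2 change -0.29, adjusted p = 0.0197) while it rose in Tak-1 (0.66, adjusted p = 1.35e-06). The interaction was -0.95 (SE 0.121, adjusted p = 0.00103), on top of a level that was lower in the mutant on both media.

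MpPPO32 (Mp3g24050) went the other way and was the only called gene at least 2-fold higher in the interaction. It was at 21.7, 18.6 and 24.7 CPM in Mpwrky10 without phosphate, against 12.5, 17.2 and 14.2 CPM in Mpwrky10 on full medium, and at 6.46, 5.91 and 7.31 CPM in Tak-1 without phosphate, against 9.33, 10.5 and 7.45 CPM in Tak-1 on full medium. It rose in the mutant (0.57, adjusted p = 0.00259) and fell in Tak-1 (-0.47, adjusted p = 0.0166), with an interaction of 1.04 (SE 0.203, adjusted p = 0.0376). The call held in 5 of the 12 fits that left out 1 library, those without no-phosphate Mpwrky10 library 2, full-medium Mpwrky10 libraries 1 or 2, no-phosphate Tak-1 library 3 or full-medium Tak-1 library 3. The highest adjusted p over all alternatives was 0.133.

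MpPPO54 and MpPPO71 are neighbours on chromosome 5, 5 rows apart in the order of the count table, with MpPPO53 between them and MpPPO42 next to MpPPO54. MpPPO53 had an interaction of -0.79 (SE 0.192, adjusted p = 0.105) and MpPPO42 one of 0.86 (SE 0.323, adjusted p = 0.326), so neither was called. MpPPO53 was at 6.50, 9.02 and 10.1 CPM in Mpwrky10 without phosphate and 8.88, 8.86 and 7.05 CPM in Mpwrky10 on full medium, against 26.7, 31.1 and 25.04 CPM in Tak-1 without phosphate and 15.99, 14.4 and 15.9 CPM in Tak-1 on full medium. MpPPO36, on chromosome 6, had -0.65 (SE 0.187, adjusted p = 0.179) and MpPPO45, on chromosome 5, -0.35 (SE 0.120, adjusted p = 0.257).

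**Figure D3:**
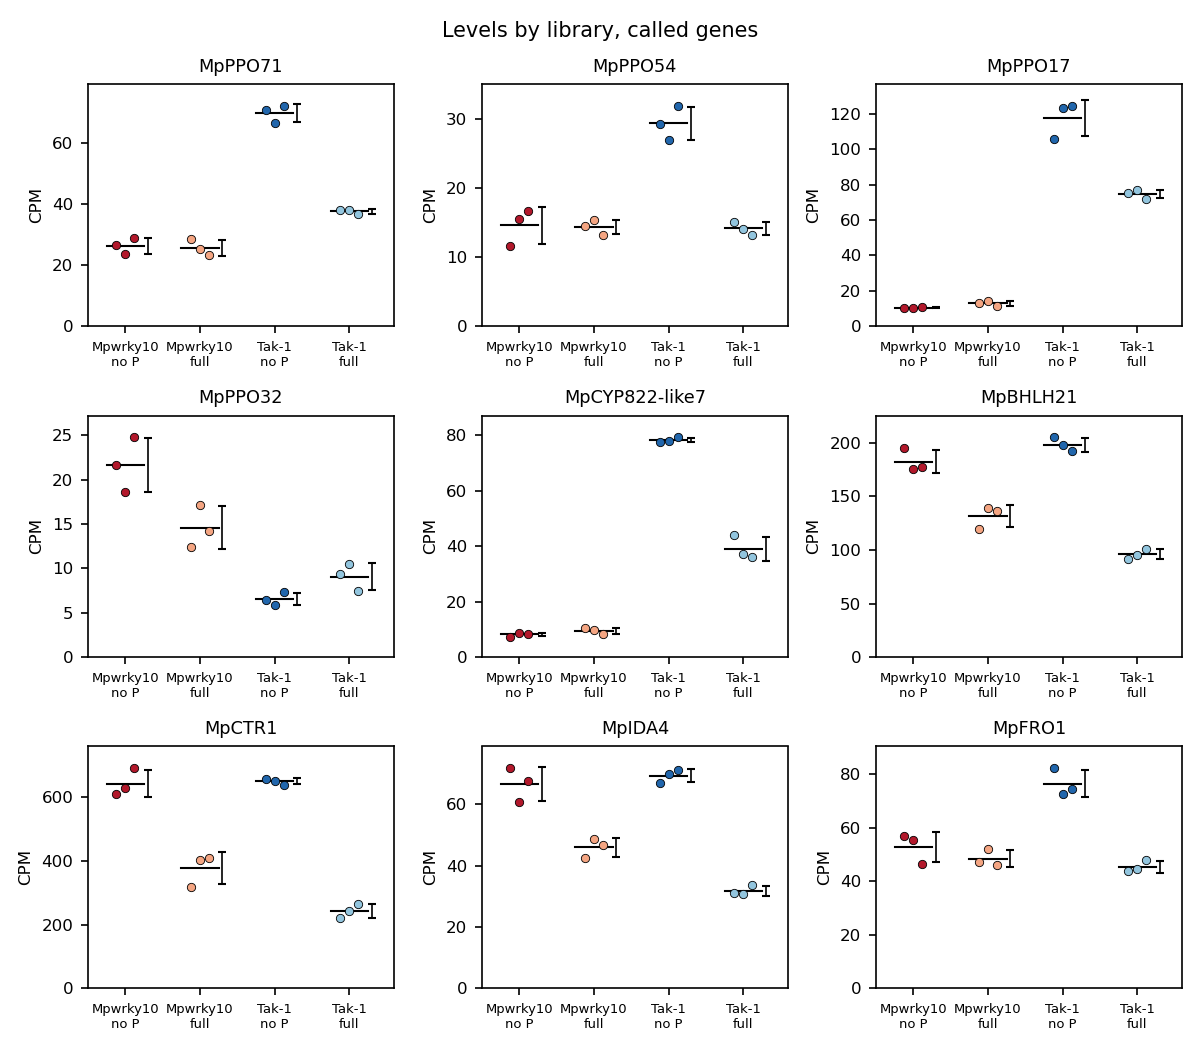
Levels in CPM of 9 called genes by library (points), for Mpwrky10 and Tak-1 on medium labelled without phosphate (no P) and on full medium; horizontal lines are means and bars 1 SD of 3 libraries. In MpPPO71, MpPPO54, MpPPO17, MpCYP822-like7 and MpFRO1 the no-phosphate Tak-1 libraries lie above all others, whereas MpBHLH21, MpCTR1 and MpIDA4 differ between genotypes mainly on full medium.

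Cytochromes P450, oxygenases that modify many plant metabolites, had 2 called members of 85 tested, both lower (0.284% of all genes). Of the 85 values 57 were negative (47.7% of all genes), with a median of -0.13. An unadjusted p under 0.05 was reached by 15 of the 85, all negative (11.8% of all genes in either direction). The first called member had the smallest adjusted p of all 40 genes. MpCYP822-like7 (Mp5g17730) was at 7.48, 8.74 and 8.49 CPM in Mpwrky10 without phosphate, against 10.5, 9.76 and 8.498 CPM in Mpwrky10 on full medium, and at 77.7, 77.9 and 79.2 CPM in Tak-1 without phosphate, against 44.1, 37.4 and 36.0 CPM in Tak-1 on full medium. The mutant libraries were low on both media, and the Tak-1 groups did not overlap. Its log2 change was -0.21 in the mutant (adjusted p = 0.113) and 1.00 in Tak-1 (adjusted p = 4.26e-08), which gave an interaction of -1.21 (SE 0.131, adjusted p = 0.000266).

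MpCYP704-like5 (Mp2g06910) rose in both genotypes, by 0.78 on the log2 scale in the mutant and by 1.54 in Tak-1. It was at 34.5, 36.7 and 36.6 CPM in Mpwrky10 without phosphate and 19.7, 24.7 and 18.6 CPM in Mpwrky10 on full medium, against 72.0, 73.5 and 70.4 CPM in Tak-1 without phosphate and 25.9, 23.1 and 25.3 CPM in Tak-1 on full medium. The genotypes overlapped on full medium and were apart without phosphate. The interaction of -0.76 (SE 0.147, adjusted p = 0.0284) was called in 4 of 12 fits without 1 library, those without no-phosphate Mpwrky10 library 2, full-medium Mpwrky10 libraries 1 or 3 or full-medium Tak-1 library 3, and its adjusted p reached 0.128.

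Terpene synthases and the microbial-type terpene synthase-like (MTPSL) genes had 1 called member of 12 tested, which was lower (0.284% of all genes). MpMTPSL8 (Mp4g05010) was at 26.04, 26.3 and 26.9 CPM in Mpwrky10 without phosphate, against 22.3, 26.7 and 23.0 CPM in Mpwrky10 on full medium, and at 54.6, 48.7 and 49.7 CPM in Tak-1 without phosphate, against 26.6, 23.9 and 29.5 CPM in Tak-1 on full medium. The 2 genotypes overlapped on full medium and were apart on the no-phosphate medium. The log2 change was 0.14 in the mutant (adjusted p = 0.199) and 0.94 in Tak-1 (adjusted p = 5.81e-08), and the interaction was -0.80 (SE 0.115, adjusted p = 0.00318). Over the 12 genes the median was -0.45, against 0.01 over all genes. Of the 12, 6 rose in the mutant (20.3% of all genes) and 10 in Tak-1 (26.3%). Of the 12 values 9 were negative (47.7% of all genes). Among these was MpMTPSL22, given further on, which was at 0 counts in the mutant.

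The oil-body list held 10 tested genes, 1 of them called lower (0.284% of all genes), MpMTPSL8. All MTPSL genes of this list, among them MpMTPSL8, MpMTPSL2, MpMTPSL1 and MpMTPSL22, are also in the terpene synthase list. The lists are therefore not independent. Of the 10, 9 had a negative interaction (47.7% of all genes), 5 of these with an unadjusted p under 0.05 (11.8% of all genes in either direction), and the median was -0.53. The 9 include MpMTPSL22, given below, for which no mutant response could be measured. Of the 10, 1 rose in Mpwrky10 (20.3% of all genes) and 6 rose in Tak-1 (26.3%). Their summed level was 152 to 155 CPM in Mpwrky10 and 231 to 240 CPM in Tak-1 without phosphate, and 145 to 154 CPM in Mpwrky10 and 164 to 181 CPM in Tak-1 on full medium. Most of the gap between the genotypes in this sum came from MpMTPSL2, MpMTPSL8 and MpABCG1 without phosphate, and from MpMTPSL2 on full medium. How far this sum follows the number of oil-body cells was not tested.

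The members of this list differed among themselves. MpABCG1, a transporter of the oil-body membrane, was at 23.1, 29.0 and 28.5 CPM in Mpwrky10 without phosphate and 22.7, 22.9 and 18.7 CPM in Mpwrky10 on full medium, against 39.4, 42.5 and 39.7 CPM in Tak-1 without phosphate and 23.0, 22.0 and 21.7 CPM in Tak-1 on full medium. Its interaction was -0.54 (SE 0.140, adjusted p = 0.124). MpSYP12B, a membrane fusion protein of the oil body, had -0.52 (SE 0.182, adjusted p = 0.265). Levels of MpMTPSL2 were 0.648 ± 0.136 CPM in Mpwrky10 without phosphate and 0.672 ± 0.140 CPM in Mpwrky10 on full medium, against 38.3 ± 1.35 CPM in Tak-1 without phosphate and 17.5 ± 4.25 CPM in Tak-1 on full medium (SD, n = 3 each), with an interaction of -1.18 (SE 0.321, adjusted p = 0.146). It was thus nearly silent in the mutant on both media.

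The transcription factors of the oil body gave small values. MpC1HDZ, which is needed to form oil-body cells, had an interaction of -0.04 (SE 0.124, adjusted p = 0.942). MpERF13, which promotes them, had -0.36 (SE 0.299, adjusted p = 0.686). MpMTPSL1 had the only positive value of the list, 0.10 (SE 0.102, adjusted p = 0.742). MpMTPSL22 was at 0 counts in all 6 mutant libraries and at 1.62 ± 0.221 CPM without phosphate and 0.313 ± 0.182 CPM on full medium in Tak-1 (SD, n = 3 each), so no mutant response could be measured.

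**Figure D4:**
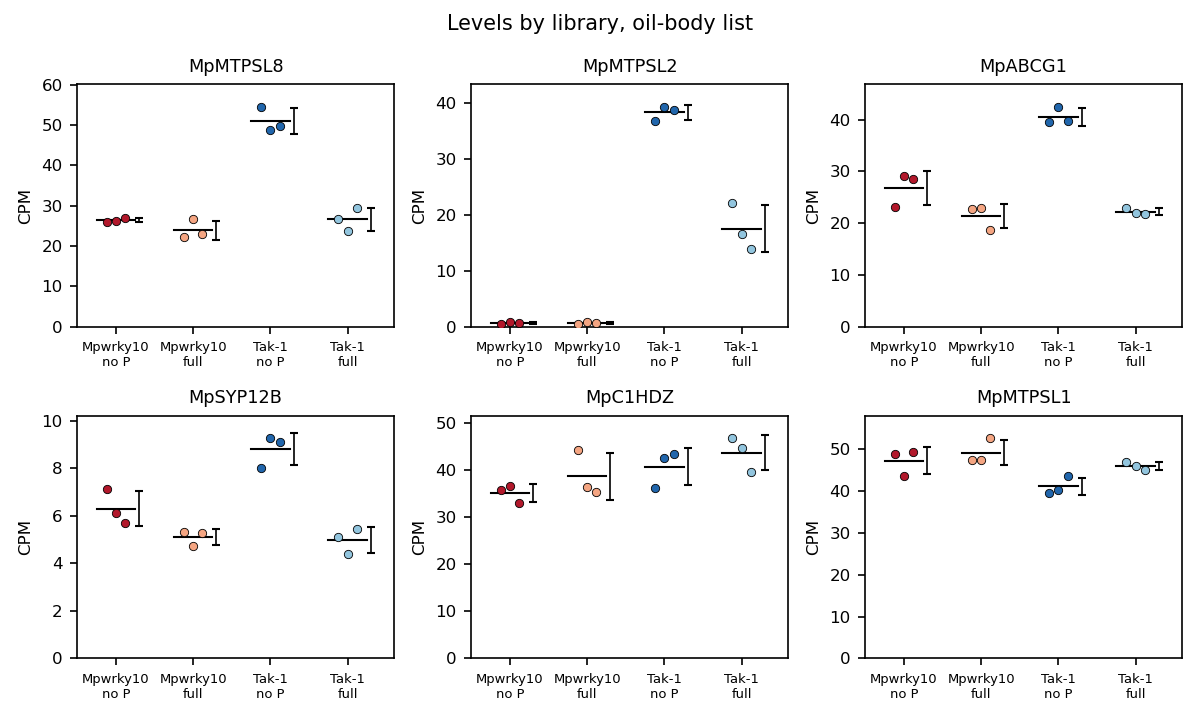
Levels in CPM of 6 genes of the oil-body list by library (points), for Mpwrky10 and Tak-1 on medium labelled without phosphate (no P) and on full medium; lines are means and bars 1 SD of 3 libraries. MpMTPSL8 was the only called gene of the 6. The no-phosphate Tak-1 libraries lie above the rest in MpMTPSL8, MpMTPSL2, MpABCG1 and MpSYP12B, but not in MpC1HDZ or MpMTPSL1.

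In several other called genes the mutant was higher on full medium and the genotypes overlapped without phosphate, among them MpBHLH21, MpCTR1, MpIDA4 and, given further on, MpCache2 and MpGH95. MpBHLH21 (Mp3g11900) is a basic helix-loop-helix transcription factor and the 1 called of 35 tested in that family (0.307% of all genes were called). It was at 194.6, 175.2 and 176.9 CPM in Mpwrky10 and 204.7, 197.6 and 191.7 CPM in Tak-1 without phosphate, where the genotypes overlapped. On full medium it was at 119.8, 139.4 and 136.1 CPM in Mpwrky10, all above the 91.9, 95.1 and 101.2 CPM of Tak-1. It rose by 0.47 in the mutant and by 1.04 in Tak-1, and the interaction was -0.58 (SE 0.0955, adjusted p = 0.00891).

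MpCTR1 (Mp8g15840), whose Arabidopsis counterpart is a kinase that keeps ethylene signalling off, was at 609.0, 628.2 and 689.4 CPM in Mpwrky10 and 657.7, 650.6 and 638.5 CPM in Tak-1 without phosphate. On full medium it was at 318.9, 402.8 and 407.5 CPM in Mpwrky10 and 220.4, 242.4 and 264.6 CPM in Tak-1. The genotypes overlapped without phosphate and did not overlap on full medium. The interaction was -0.65 (SE 0.125, adjusted p = 0.0283), called in 3 of 12 fits without 1 library, those without no-phosphate Mpwrky10 library 3, full-medium Mpwrky10 library 1 or full-medium Tak-1 library 3, with an adjusted p of up to 0.0975.

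MpIDA4 (Mp7g10970) is named for a family of secreted signalling peptides that acts in the shedding of floral organs in Arabidopsis. It was at 71.7, 60.8 and 67.6 CPM in Mpwrky10 and 67.1, 69.9 and 71.3 CPM in Tak-1 without phosphate, and at 42.5, 48.8 and 46.6 CPM in Mpwrky10 and 31.0, 30.8 and 33.7 CPM in Tak-1 on full medium. Here too the genotypes overlapped without phosphate only. The interaction was -0.59 (SE 0.120, adjusted p = 0.0390), called in 3 of 12 such fits, those without no-phosphate Mpwrky10 library 1, full-medium Mpwrky10 library 1 or full-medium Tak-1 library 3, with an adjusted p of up to 0.133.

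Among the remaining genes with a symbol, MpFRO1 (Mp1g14960), named for the ferric reductases of iron uptake in Arabidopsis, rose in Tak-1 (0.75, adjusted p = 4.46e-07) and was not called in the mutant (0.13, adjusted p = 0.221). It was at 56.8, 55.5 and 46.4 CPM in Mpwrky10 without phosphate and 47.0, 52.0 and 46.2 CPM in Mpwrky10 on full medium, against 82.1, 72.6 and 74.6 CPM in Tak-1 without phosphate and 43.7, 44.5 and 47.8 CPM in Tak-1 on full medium. The interaction was -0.63 (SE 0.111, adjusted p = 0.0155). The call was lost without full-medium Mpwrky10 library 2, no-phosphate Tak-1 library 1 or full-medium Tak-1 libraries 1 or 2, with an adjusted p of up to 0.0677.

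MpGH95 (Mp8g03630), of a fucosidase family, rose in both genotypes. It was at 3.31 ± 0.548 CPM in Mpwrky10 and 2.99 ± 0.274 CPM in Tak-1 without phosphate, and at 2.06 ± 0.434 CPM in Mpwrky10 and 0.641 ± 0.106 CPM in Tak-1 on full medium (SD, n = 3 each). Its interaction of -1.55 (SE 0.320, adjusted p = 0.0435) was called without full-medium Mpwrky10 library 1 and in none of the other 11 fits that left out 1 library, where the adjusted p reached 0.169. MpGT37.2 (Mp2g06140), of the family that adds fucose to xyloglucan, also rose in both and had -0.52 (SE 0.103, adjusted p = 0.0325).

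MpPMT.3 (Mp3g07630) was at 104.9 ± 10.9 CPM in Mpwrky10 and 129.6 ± 1.22 CPM in Tak-1 without phosphate, and at 55.8 ± 4.58 CPM in Mpwrky10 and 44.9 ± 0.680 CPM in Tak-1 on full medium (SD, n = 3 each), so the order of the genotypes differed between media. Its interaction was -0.62 (SE 0.119, adjusted p = 0.0283). MpCache2 (Mp2g02750) was at 128.1 ± 14.3 CPM in Mpwrky10 and 128.2 ± 6.44 CPM in Tak-1 without phosphate, and at 88.0 ± 6.62 CPM in Mpwrky10 and 51.6 ± 9.81 CPM in Tak-1 on full medium (SD, n = 3 each), with -0.77 (SE 0.151, adjusted p = 0.0377). MpDES5 (Mp3g13250) had -0.45 (SE 0.0800, adjusted p = 0.0155). The calls held in 4 of 12 fits without 1 library for MpPMT.3, 5 for MpCache2, 8 for MpDES5 and 3 for MpGT37.2, and full-medium Mpwrky10 library 1 and full-medium Tak-1 library 3 could be left out without losing any of these 4.

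The 22 genes with a lower response and no symbol ran from -5.18 to -0.38. Genes without a symbol are named here after their values were seen. Mp3g18540 was at 65.9, 73.2 and 78.1 CPM in Mpwrky10 without phosphate and 62.2, 70.0 and 65.7 CPM in Mpwrky10 on full medium, against 91.6, 99.7 and 96.2 CPM in Tak-1 without phosphate and 54.5, 53.8 and 48.1 CPM in Tak-1 on full medium. Its interaction was -0.74 (SE 0.104, adjusted p = 0.00267). Mp2g25870 had -1.04 (SE 0.146, adjusted p = 0.00267) and Mp1g17670 -1.12 (SE 0.172, adjusted p = 0.00453). Among the called genes, Mp2g09820 had the highest Tak-1 fold above a measurable base. It rose in both genotypes, by 3.26-fold in the mutant and 7.58-fold in Tak-1. Its interaction was -1.22 (SE 0.227, adjusted p = 0.0377). The call held in 2 of 12 fits without 1 library and in 7 of all 19 alternatives.

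The lowest value, -5.18 for Mp7g12380, rests on a Tak-1 full-medium group at 0 counts. The gene was at 2.27, 2.31 and 2.07 CPM in Mpwrky10 and 0.143, 0.234 and 0.234 CPM in Tak-1 without phosphate, and at 2.84, 1.96 and 2.05 CPM in Mpwrky10 on full medium. Against a floor of 3 counts over the group, 0.0463 CPM, the Tak-1 rise was at least 4.4-fold, resting on 14 counts in the 3 no-phosphate libraries. The fitted value depends on the prior count and is no bound; its adjusted p was 0.0494 and the call held in 4 of 19 alternatives.

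Several called genes were close to each other in the count table. Mp8g00730 and Mp8g00740 were 1 row apart, Mp3g18520 and Mp3g18540 2 rows, MpIDA4 and Mp7g11020 5 rows, and Mp7g12290 and Mp7g12380 9 rows. Mp8g00730 was at 1.65 ± 0.374 CPM in Mpwrky10 and 13.8 ± 0.950 CPM in Tak-1 without phosphate, and at 1.68 ± 0.184 CPM in Mpwrky10 and 5.32 ± 0.523 CPM in Tak-1 on full medium, while Mp8g00740 was at 17.7 ± 1.16 CPM in Mpwrky10 and 26.3 ± 1.22 CPM in Tak-1 without phosphate, and at 14.0 ± 0.674 CPM in Mpwrky10 and 12.2 ± 0.352 CPM in Tak-1 on full medium (SD, n = 3 each). Both rose more in Tak-1, from different levels relative to the mutant.

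The 3 genes with a higher mutant response all fell in Tak-1, by 0.44 to 0.49 on the log2 scale, and 2 of them, MpPPO32 and Mp8g14810, rose in the mutant. Mp8g14810 was at 7.74, 7.36 and 6.96 CPM in Mpwrky10 without phosphate, against 5.94, 5.84 and 4.23 CPM in Mpwrky10 on full medium, and at 6.61, 5.16 and 6.84 CPM in Tak-1 without phosphate, against 7.97, 9.66 and 8.48 CPM in Tak-1 on full medium. Its interaction was 0.96 (SE 0.198, adjusted p = 0.0435), called in 2 of 12 fits without 1 library, those without full-medium Mpwrky10 library 1 or full-medium Tak-1 library 3.

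Mp7g01940 stood out by its level. It was at 33190, 30750 and 33040 CPM in Mpwrky10 and 377.3, 349.8 and 338.7 CPM in Tak-1 without phosphate, and at 25670, 32560 and 29380 CPM in Mpwrky10 and 466.4, 489.3 and 486.1 CPM in Tak-1 on full medium. The ratio of mean levels, Mpwrky10 over Tak-1, was 91.0 without phosphate and 60.8 on full medium. Its interaction was 0.58 (SE 0.112, adjusted p = 0.0283). Most of it was the Tak-1 fall of 0.44, and the rest a mutant rise of 0.15 that was not called (adjusted p = 0.158). The call held in 5 of 12 fits without 1 library, those without no-phosphate Mpwrky10 library 2, full-medium Mpwrky10 libraries 1 or 2, no-phosphate Tak-1 library 1 or full-medium Tak-1 library 3.

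The other 33 of the 38 gene lists had no called member by edgeR. Of 8 ammonium transporters 7 rose in Mpwrky10 (20.3% of all genes), with a median log2 change of 2.33. In Tak-1 8 rose (26.3%), with a median of 3.84, the highest Tak-1 median of the 38 lists. Class III peroxidases had the highest median in Mpwrky10, 2.47. The median interaction of the ammonium transporters was -0.62, with none at an unadjusted p under 0.05 and none called by DESeq2. MpAMT2.4 was at 11.8, 19.1 and 4.64 CPM in Mpwrky10 and 45.3, 42.4 and 33.6 CPM in Tak-1 without phosphate, and at 0.149 ± 0.145 CPM in Mpwrky10 and 0.305 ± 0.0507 CPM in Tak-1 on full medium (SD, n = 3 each). Its interaction was -0.67 (adjusted p = 0.932), and the 3 no-phosphate mutant libraries were spread over a wider range than those of Tak-1 relative to their mean.

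The lists tied to phosphate gave medians of -0.26 (phosphate transporters, 7 tested), -0.15 (phosphate signalling, 6 tested) and 0.01 (membrane lipid remodelling, 10 tested). In this order they had 0, 1 and 1 members at an unadjusted p under 0.05 (11.8% of all genes), and DESeq2 called none. The first of these medians carries little, since MpPTB1, MpPTB2, MpPTB3, MpPTB4 and MpPTB5 had means of at most 0.312 CPM in the 4 groups and it ran from -0.52 without no-phosphate Mpwrky10 library 1 to 0 without no-phosphate Mpwrky10 library 3. MpSPX, of a family of phosphate sensors, had -0.08 (SE 0.110, adjusted p = 0.817) and MpSQD, which makes the sulpholipid that replaces phospholipids, 0.04 (SE 0.137, adjusted p = 0.944). MpNLA, named for a ubiquitin ligase that limits phosphate uptake in Arabidopsis, rose in both genotypes, by 1.49 in the mutant and 1.89 in Tak-1, with an interaction of -0.40 (SE 0.359, adjusted p = 0.707).

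No gene was called in 3 families of phenolic metabolism. Class III peroxidases, which couple phenolics in the wall, had a median of -0.30 over 109 genes. Of these, 66 rose in Mpwrky10 (20.3% of all genes) and 86 in Tak-1 (26.3%). Of the 109, 12 were at an unadjusted p under 0.05, a share near the 11.8% of all genes. The chalcone synthase family, which starts flavonoid synthesis, had -0.30 over 21 genes, 2 of them at that p. Dirigent proteins, which steer phenolic coupling, had -0.28 over 38 genes, 32 of them negative (47.7% of all genes) and 2 at that p. DESeq2 called 1 peroxidase higher and 1 lower, and none of the chalcone synthase or dirigent genes. Without full-medium Mpwrky10 library 1 the peroxidase median was 0.08, so its sign depended on that library.

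Of 29 histone and replication genes 25 had a positive interaction (6798 of 13016 over all genes), with a median of 0.17. Of the 29, 5 fell in Mpwrky10 (16.8% of all genes) and 20 in Tak-1 (22.9%). The 5 chlorophyll and photosynthesis genes fell in both genotypes (16.8% of all genes in Mpwrky10 and 22.9% in Tak-1), with a median interaction of 0.09. The 13 WRKY factors had a median of 0.07, which was -0.06 without no-phosphate Mpwrky10 library 3, and MpWRKY14 had the lowest value, -1.13 (SE 0.477, adjusted p = 0.372), at 8.53 ± 1.80 CPM in Mpwrky10 and 10.8 ± 2.01 CPM in Tak-1 without phosphate and at 3.49 ± 1.87 CPM in Mpwrky10 and 2.05 ± 0.246 CPM in Tak-1 on full medium (SD, n = 3 each). An unadjusted p under 0.05 was reached by 6 of the 29 histone and replication genes, all positive, and by 1 of the 13 WRKY factors, negative. The share over all genes was 11.8% in either direction. DESeq2 called none of these lists' members.

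**Figure D5:**
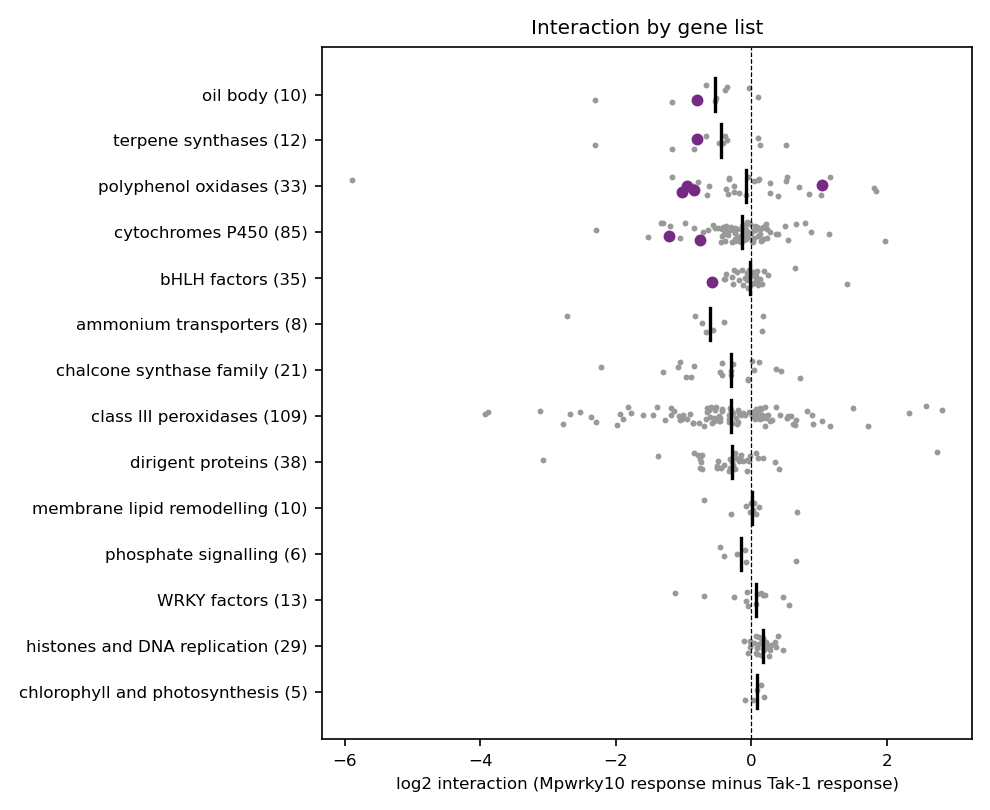
The log2 interaction of each tested gene (points) in 14 gene lists, with the number tested in brackets; thick bars are list medians, large purple points the called genes and the dashed line 0. Called genes appear in 5 lists, and the list medians lie between -0.62 (ammonium transporters) and 0.17 (histones and DNA replication).

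To see whether these genes behaved alike on medium labelled without nitrate, the genotype difference (Mpwrky10 minus Tak-1) without phosphate was set against that without nitrate, a contrast that uses no full-medium library. Over all genes it called 279 lower without phosphate (2.14%) and 201 higher (1.54%). Of the 37 genes, 19 were called lower and none higher, with 18 not called; since the no-phosphate libraries are shared with the interaction, the count is a description. MpCYP822-like7 was at 13.1 ± 0.708 CPM in Mpwrky10 and 53.4 ± 3.52 CPM in Tak-1 without nitrate (SD, n = 3 each). Its difference between the media was -1.22 (SE 0.129, adjusted p = 9.1e-05), and its interaction with nitrate removal 0.01 (SE 0.126, adjusted p = 0.983). The difference was also called lower for MpPPO17, MpPPO54, MpPPO71, MpMTPSL8, MpFRO1, MpPMT.3 and MpGT37.2, and higher for MpPPO32.

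The interaction with labelled nitrate removal called 277 genes (2.13%), 155 lower (1.19%) and 122 higher (0.937%). Of the 37 genes 7 were called lower in it; both interactions use the same full-medium libraries. MpBHLH21 had -0.49 (SE 0.0958, adjusted p = 0.0113), MpIDA4 -0.64 (SE 0.122, adjusted p = 0.00988) and Mp5g06480 -0.59 (SE 0.0950, adjusted p = 0.00394). For these 3 the genotype difference did not pass the test between the media without phosphate and without nitrate, with values of -0.08 (SE 0.0950, adjusted p = 0.697) for MpBHLH21, 0.05 (SE 0.119, adjusted p = 0.868) for MpIDA4 and 0.01 (SE 0.0941, adjusted p = 0.964) for Mp5g06480.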

How the data were processed

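RNA was sequenced from poly(A)-selected, directional libraries, per the labels' protocols. The deposited values are raw counts of reads per gene in 18 Marchantia libraries, per the file headers, with 0 unused columns of counts; the 9 lettuce libraries were not used. The submitters' processing notes name STAR 2.7 and DESeq2; the counting program, strand setting and genome build are not given in the sources used here, so overlapping, antisense and near-identical genes are uncertain and no coordinates are given. Symbols come from RefSeq names for MpTak2_v7.1, matched on locus numbers (17384 of 18391 entries; 2441 tested genes have a symbol), which assumes that both number genes alike.

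One model was fitted to all 18 libraries (6 groups of 3; edgeR 4.0.16, R 4.3.3, limma 3.58.1), with filterByExpr (13016 of 19355 genes kept), TMM factors, the robust quasi-likelihood test (two-sided) and Benjamini-Hochberg adjustment. The common biological coefficient of variation was 0.0962. SE is the log2 value divided by the root of F. Replicate pairs differed beyond sampling noise (chi-square per degree of freedom 3.79 to 19.5), so each library counted once. No label says that replicates were separate cultures, so the p-values rest on the spread between these libraries, which may be technical. The fit was tested on simulated data.

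Named genes are MpWRKY10, up to 12 called genes with a symbol and at least 1 CPM in each direction, up to 4 called members of each list, and the highest member of a list with none called; others, including MpGT37.2, MpDES5 and unnamed identifiers, were chosen after their values were seen. The members, the 38 lists and the tests were chosen with earlier results of these data known. Promoter motifs were not analysed here. The 19 alternatives were other normalizations and filters, DESeq2 1.42.0, a replicate block, 12 libraries only and leaving out each library. A 2-fold minimum on the reported fit was applied apart from these 19.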

Additional observations from a re-analysis of the deposited data

Results flagged for a closer look

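The response to labelled phosphate removal differed between Mpwrky10 and Tak-1 by the test of the difference itself for 40 genes, 37 with a lower and 3 with a higher response in the mutant (edgeR, Benjamini-Hochberg adjusted p under 0.05). Called changes of opposite sign in the 2 genotypes were found for 3 of them. MpPPO17 fell in the mutant and rose in Tak-1, with an interaction of -0.95. Mp8g14810 and MpPPO32 rose in the mutant and fell in Tak-1, with interactions of 0.96 and 1.04. What lies behind these differences was not tested.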

How the results depend on the processing

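All 40 called genes kept their sign in the 19 alternatives, and 13 kept the call in each. The count of 40 (37 lower, 3 higher) was 42 with the 12 libraries only, 44 with RLE size factors, 33 with library totals, 49 without a filter (5 higher) and 40 with a stricter filter. DESeq2 called 153 (121 lower, 32 higher), among them all 40. A 2-fold minimum left 12 (11 lower, 1 higher). Leaving out 1 library gave 15 to 93 calls, 14 to 70 lower and 0 to 23 higher. The highest counts came without full-medium Mpwrky10 library 1 and the lowest totals without no-phosphate Tak-1 library 1. The count was 24 and 26 without no-phosphate Mpwrky10 libraries 1 and 3, 21 without full-medium Mpwrky10 library 2 and likewise 3, 16 and 26 without no-phosphate Tak-1 libraries 2 and 3, and 22, 16 and 62 without full-medium Tak-1 libraries 1, 2 and 3. Fits that left out a library kept 15 to 40 of the 40 genes. The replicate block gave 70 calls (54 lower, 16 higher) and lost Mp7g12380 (adjusted p = 0.0591). Same-numbered libraries of different groups correlated at -0.28 to 0.286 in their deviations over 18 pairs, and 4 of 12 libraries correlated best with their own number, so the numbers were not taken to pair the samples. The 34 uncalled genes named by the rule above, MpWRKY10 and the highest members of lists with none called, stayed uncalled in all alternatives. Some of their values are so near 0 that the sign carries nothing, such as 0.001 (SE 0.0867) for MpExpansin2. Other uncalled genes given in the text, such as MpMTPSL2, MpABCG1 and MpPPO53, are not among these 34. Without full-medium Tak-1 library 1, the oil-body list and the terpene synthase list each had 2 members called lower, against 1 as reported. Leaving out 1 library took the list medians from -0.32 to 0.13 for polyphenol oxidases, -0.56 to 0.08 for class III peroxidases and -0.06 to 0.11 for WRKY factors, so their signs were not stable. The sign of the median also changed in other lists, among them membrane lipid remodelling (-0.05 to 0.04) and bHLH factors (-0.05 to 0.005). The smallest called size, 0.38 on the log2 scale, is no detection limit, since the SE differs between genes and other tools called more.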
